A study of Homo sapiens with 6 samples.

Results

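The mitochondrial genome transcripts were all 37 genes that the deposited table places on the mitochondrial chromosome, out of 58735 genes in all, and no measured value was used to choose them. They comprise 13 mRNAs, 2 rRNAs and 22 tRNAs. Expression was measured by RNA sequencing in Hep-G2, an established human liver cancer line labelled HCC and hepatocytes, carrying either a control hairpin (sh-NC, genotype given as WT, n = 3 libraries) or a hairpin against CLGN (sh-CLGN, genotype given as a CLGN knockdown, n = 3 libraries). Per the methods of the study, both groups are lentiviral lines selected with puromycin, with 1 hairpin each, and all 6 libraries carry the same batch label (0DAY). No label says that the libraries of a group came from separate cultures, so p-values measure the spread between these libraries, which may be technical, and the hairpin and any difference between the 2 lines cannot be told apart.

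Human mitochondrial DNA is a small circle that is transcribed on both strands into long precursors spanning many genes. Most genes are read from 1 strand, and in these data 12 mRNAs, both rRNAs and 14 tRNAs were annotated on the plus strand, against 1 mRNA (MT-ND6) and 8 tRNAs on the minus strand. The tRNAs lie between the other genes, and the precursors are cut at the ends of the tRNAs to release the mRNAs and rRNAs. Most of these mRNAs and rRNAs, though not all, are then given short poly(A) tails, and they decay at their own rates. The mRNAs encode subunits of respiratory complexes I, III, IV and V, the rRNAs build the mitochondrial ribosome, and every protein that transcribes, cuts or translates these RNAs comes from the nucleus. In bulk RNA, more mitochondrial genomes per cell, more RNA per genome and a shift among cells of different content cannot be told apart.

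The FPKM values (reads scaled by gene length and library size) stood for 14955816 to 16244639 reads per library, of which 505791 to 875287 were mitochondrial. CLGN (ENSG00000153132), which encodes the endoplasmic reticulum chaperone calmegin, was at 24.1, 21.0 and 26.1 FPKM under sh-NC and at 9.48, 8.88 and 8.60 FPKM under sh-CLGN. The value was below every control library in 3 of 3 knockdown libraries (log2 fold change -1.31, SE 0.08, adjusted p = 8.35e-06, limma), in the direction of the labels. Of 13074 genes that passed the filter of at least 1 FPKM in at least 3 libraries, 26.7% were called higher and 39.0% lower under sh-CLGN when the adjusted p was 0.05 or less, and the median log2 fold change was -0.08. Every count of members called is therefore read against a wide background. The balance of that background turned with the scaling, to 37.9% higher and 26.2% lower when scaled by all recovered reads (median 0.08), 39.8% and 24.5% by nuclear reads, and 32.8% and 30.0% as TPM. Mitochondrial read counts of libraries of the same group differed by more than counting noise (chi-square per degree of freedom 13.8 to 119), and all 6 were kept as separate libraries.

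The mitochondrial genome took a larger part of the reads in every sh-CLGN library. Its share was 4.02%, 3.25% and 3.57% under sh-NC and 5.54%, 5.49% and 5.80% under sh-CLGN, a ratio of means of 1.55. The mRNA share was 2.97% ± 0.344 under sh-NC and 4.61% ± 0.224 under sh-CLGN (SD, n = 3), the rRNA share 0.635% ± 0.0567 and 0.973% ± 0.0607, and the tRNA share 0.0128% ± 0.00113 and 0.0207% ± 0.00104. The ratios of the means were 1.55, 1.53 and 1.62. None of the 4 shares overlapped between groups, and each gave p = 0.1 in the exact two-sided permutation test, the smallest p that 3 against 3 libraries allow.

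Set against each other, the classes did not differ between groups beyond their spread. There were 19.8, 21.3 and 23.3 rRNA reads per 100 mitochondrial mRNA reads under sh-NC and 23.0, 21.8 and 18.7 under sh-CLGN (exact permutation p = 0.9). The tRNAs gave 38.9, 43.1 and 47.6 reads per 10000 mRNA reads under sh-NC and 47.6, 47.5 and 40.1 under sh-CLGN (exact permutation p = 0.6). Both balances overlapped between groups. The class totals hide differences between genes, which follow.

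All 13 mRNAs passed the filter. The test called 8 of them higher under sh-CLGN, against 26.7% of all tested genes, and 0 lower, against 39.0%. With no filter on low values 5 were called, without MT-CO1, MT-ND4 and MT-CYB, against 13.6% of all tested genes in that setting. The 8 were MT-ND1, MT-ND2, MT-CO1, MT-ND4L, MT-ND4, MT-ND5, MT-ND6 and MT-CYB, and in these same genes all sh-CLGN libraries were above all sh-NC libraries, which held for 28.7% of tested genes. The 5 that did not pass, MT-CO2, MT-ATP8, MT-ATP6, MT-CO3 and MT-ND3, lie next to each other on the genome with only tRNAs between them. Without sh-NC replicate 1, 11 mRNAs were called higher, against 25.2% of all tested genes. In that library MT-CO2, MT-ATP6, MT-CO3 and MT-ND3 had their highest FPKM of all 6 libraries.

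**Figure D1:**
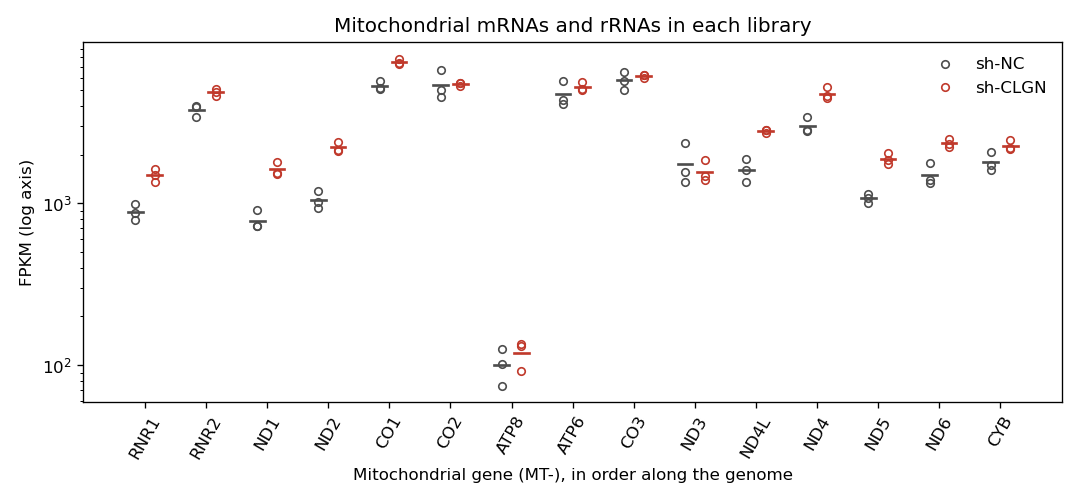
FPKM (log axis) of the 2 rRNAs and 13 mRNAs in order along the genome; circles are single libraries and bars the mean of the 3 libraries of a group. The sh-CLGN circles lie above all sh-NC circles for both rRNAs and for 8 mRNAs, and the groups overlap in the run from CO2 to ND3.

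Complex I, the NADH dehydrogenase that feeds electrons into the chain, has 7 mitochondrial subunits, and 6 of their 7 genes rose. MT-ND1 (mitochondrial genome, 3307 to 4262, plus strand) was at 908, 723 and 721 FPKM under sh-NC and at 1525, 1537 and 1817 FPKM under sh-CLGN. MT-ND2 (4470 to 5511, plus strand) was at 1188, 938 and 1022 FPKM and at 2145, 2116 and 2397 FPKM. The groups were far apart in both genes. Their log2 fold changes were 1.06 (SE 0.11, adjusted p = 8.86e-05, limma) and 1.08 (SE 0.10, adjusted p = 4.06e-05), so that MT-ND1 and MT-ND2 were the 2 of 13 mRNAs with a log2 fold change of at least 1, a size reached by 3.09% of all tested genes together with the adjusted p.

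The other complex I mRNAs on the plus strand lie further along. MT-ND4L was at 1600, 1353 and 1873 FPKM under sh-NC and at 2718, 2856 and 2861 FPKM under sh-CLGN (log2 fold change 0.82, SE 0.11, adjusted p = 0.000363). MT-ND4, which shares its first bases with the end of MT-ND4L, was at 3428, 2788 and 2865 FPKM and at 4487, 4589 and 5273 FPKM (0.66, SE 0.10, adjusted p = 0.000663). The 95% intervals of the 2 genes, 0.56 to 1.07 and 0.43 to 0.90 on the log2 scale, overlapped. MT-ND5, the longest mRNA at 1812 bases, was at 1148, 1000 and 1073 FPKM and at 1762, 1860 and 2059 FPKM (0.82, SE 0.08, adjusted p = 6.30e-05). MT-ND3, the exception, was at 2356, 1358 and 1553 FPKM under sh-NC and at 1397, 1467 and 1861 FPKM under sh-CLGN. Its groups overlapped, with sh-NC replicate 1 the highest of all 6 libraries (log2 fold change -0.13, SE 0.20, adjusted p = 0.598), and the sign turned when scaled by all reads (0.07) and without that library (0.11).

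MT-ND6 (14149 to 14673) is the sole mRNA on the minus strand. It was at 1780, 1395 and 1347 FPKM under sh-NC and at 2224, 2328 and 2520 FPKM under sh-CLGN, with no overlap (log2 fold change 0.65, SE 0.11, adjusted p = 0.00112). Per 100 reads of the 12 plus-strand mRNAs there were 2.67, 2.64 and 2.39 MT-ND6 reads under sh-NC and 2.90, 3.04 and 2.99 under sh-CLGN, a ratio of 1.16 (exact permutation p = 0.1, the smallest possible). The fold change of MT-ND6 lay between those of its neighbours on the plus strand, MT-ND5 at 0.82 and MT-CYB at 0.33. The sources used here do not state whether reads were counted by strand, so reads of MT-ND6 and of RNA from the opposite strand at the same place cannot be told apart.

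MT-CYB encodes cytochrome b, the mitochondrial subunit of complex III. It was at 2082, 1617 and 1737 FPKM under sh-NC and at 2180, 2192 and 2452 FPKM under sh-CLGN. The highest sh-NC library came close to the lowest sh-CLGN library, and the rise was the smallest of the 8 (log2 fold change 0.33, SE 0.10, adjusted p = 0.0191). The call was lost with quantile normalization (log2 fold change 0.00082) and without sh-CLGN replicate 3, sh-NC replicate 2 or sh-NC replicate 3, where adjusted p ran from 0.0541 to 0.0609.

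Complex IV, cytochrome c oxidase, has 3 mitochondrial subunits, which form its catalytic core. MT-CO1, the mitochondrial mRNA with the most reads, was at 5714, 5066 and 5148 FPKM under sh-NC and at 7342, 7236 and 7847 FPKM under sh-CLGN (log2 fold change 0.49, SE 0.07, adjusted p = 0.000637; 0.16, adjusted p = 0.0969, with quantile normalization). MT-CO2 was at 6649, 4521 and 5020 FPKM and at 5538, 5352 and 5540 FPKM (0.04, SE 0.13, adjusted p = 0.802). MT-CO3 was at 6528, 5053 and 5713 FPKM and at 6211, 5999 and 6262 FPKM (0.10, SE 0.10, adjusted p = 0.377). In MT-CO2 and MT-CO3 the sh-CLGN libraries lay close together inside the wider range of sh-NC, whose replicate 1 was the highest of the 6. Without that library both were called higher, at 0.20 (adjusted p = 0.0302) for MT-CO2 and 0.20 (adjusted p = 0.0421) for MT-CO3. The interval of the change with all libraries was -0.27 to 0.35 for MT-CO2, so a rise as large as that of MT-CO1 was outside it.

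MT-ATP8 and MT-ATP6 encode the mitochondrial subunits of complex V, the ATP synthase, and are read from 1 RNA on which the end of the first gene is the start of the second. The shared stretch of 46 bases (GENCODE 29 transcripts, GRCh38, chrMT:8527-8572, plus strand) is shown because reads there belong to both genes; the capitals mark the start codon of MT-ATP6 and the stop codon of MT-ATP8.
MT-ATP8 and MT-ATP6 overlap: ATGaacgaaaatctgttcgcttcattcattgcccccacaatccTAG
MT-ATP6 was at 5694, 4125 and 4388 FPKM under sh-NC and at 5022, 5085 and 5676 FPKM under sh-CLGN (log2 fold change 0.16, SE 0.12, adjusted p = 0.272; 0.30, adjusted p = 0.00951, without sh-NC replicate 1). MT-ATP8, at 207 bases the shortest mRNA, was at 101, 74.5 and 125 FPKM and at 135, 132 and 91.6 FPKM (0.26, SE 0.21, adjusted p = 0.294). Although both lie on the same RNA, the deposited FPKM of MT-ATP8 was 1.61% to 2.85% of that of MT-ATP6 in the 6 libraries. The level of MT-ATP8 rests on 225 to 475 reads per library, against 41014 to 62405 for MT-ATP6. How reads that overlap both genes were counted is not given in the sources used here, so the deposited level of MT-ATP8 may leave such reads out and is not read as the amount of its RNA. MT-ATP8 was called higher with quantile normalization (0.58, adjusted p = 0.0402) and its sign turned with the length trend removed (-0.03).

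**Figure D2:**
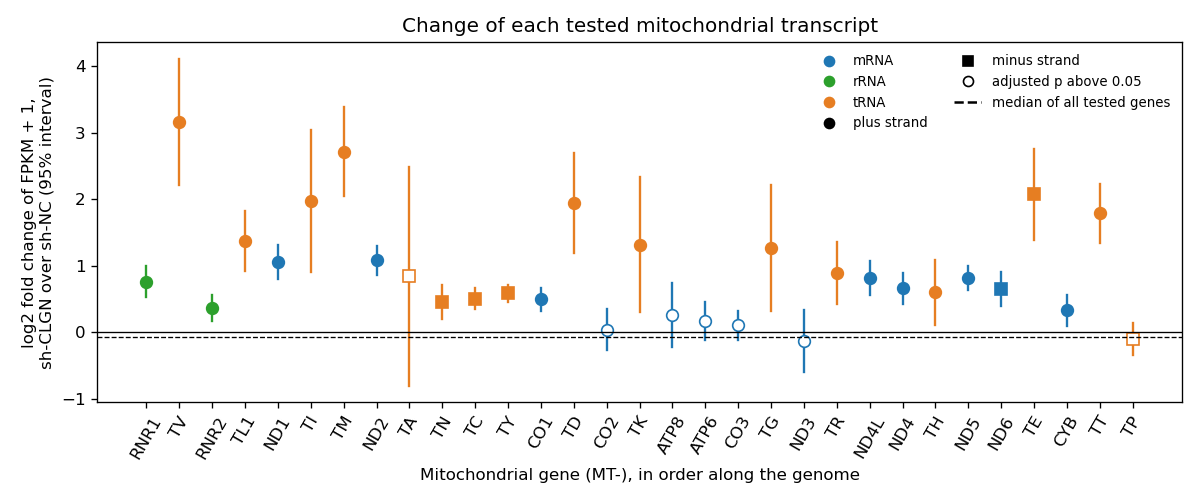
log2 fold change (sh-CLGN over sh-NC, on log2(FPKM + 1)) of the 31 tested members in order along the genome, with 95% intervals; colours give the class, circles the plus strand, squares the minus strand and open symbols an adjusted p above 0.05. The 5 open mRNA symbols from CO2 to ND3 sit near 0 between higher values on both sides, and the tRNAs reach the largest values.

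Each mRNA was also given as a share of all mitochondrial mRNA reads, a measure that no scaling between libraries can change, and this separated 6 of the 8 called mRNAs upwards but not MT-CO1 and MT-CYB. MT-ND1, MT-ND2, MT-ND4L, MT-ND4, MT-ND5 and MT-ND6 held a larger share in every sh-CLGN library than in any sh-NC library. MT-ND2 went from 3.47% ± 0.0439 to 5.40% ± 0.0840 (SD, n = 3), and MT-ND1 from 2.37% ± 0.0862 to 3.63% ± 0.164. A smaller share in every sh-CLGN library was found for 5 mRNAs, MT-CO2 (11.6% ± 0.939 to 8.76% ± 0.413), MT-ATP6 (10.2% ± 0.542 to 8.36% ± 0.119), MT-CO3 (14.3% ± 0.435 to 11.3% ± 0.487), MT-ND3 (1.90% ± 0.329 to 1.27% ± 0.130) and MT-CYB (6.55% ± 0.0686 to 6.06% ± 0.0760). MT-CO1 (26.1% ± 1.45 to 26.9% ± 0.372) and MT-ATP8 overlapped. Each of the 11 separated shares gave an exact permutation p of 0.1, the smallest possible (0.118 after Benjamini-Hochberg adjustment over 13 shares).

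Put together after these values were seen, the 5 neighbouring genes from MT-CO2 to MT-ND3 held 40.1%, 36.4% and 37.8% of mitochondrial mRNA reads under sh-NC and 30.4%, 29.8% and 29.1% under sh-CLGN. MT-ND1 and MT-ND2 together held 5.87%, 5.86% and 5.79%, and then 8.91%, 8.86% and 9.30%. As a share of all reads, the 5 neighbours took 1.14% ± 0.188 under sh-NC and 1.37% ± 0.0399 under sh-CLGN, while the other 8 mRNAs took 1.83% ± 0.156 and 3.24% ± 0.186 (SD, n = 3). The grouping was made on these libraries and has no test. Across the 13 mRNAs the log2 fold change had a Spearman correlation of -0.09 with the start position, 0.41 with length, 0.09 with GC content and -0.43 with mean FPKM, all from the same 6 libraries. The 5 neighbours are 207 to 784 bases long, and the 8 called mRNAs 297 to 1812 bases.

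**Figure D3:**
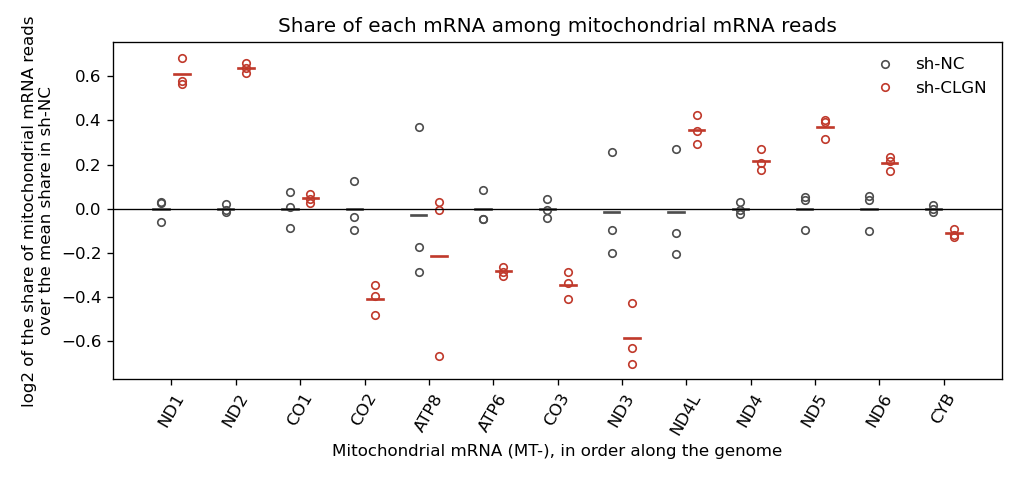
log2 of the share of each mRNA among mitochondrial mRNA reads, relative to its mean share under sh-NC, in order along the genome; circles are single libraries and bars the mean of 3. The sh-CLGN circles lie above sh-NC for ND1, ND2 and from ND4L to ND6, and below it for CO2, ATP6, CO3, ND3 and CYB.

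The 12S rRNA gene MT-RNR1 (648 to 1601) and the 16S rRNA gene MT-RNR2 (1671 to 3229) are transcribed together, with MT-TV between them, and form the small and large subunit of the mitochondrial ribosome. Both rose. MT-RNR1 was at 989, 793 and 871 FPKM under sh-NC and at 1636, 1504 and 1356 FPKM under sh-CLGN (log2 fold change 0.76, SE 0.10, adjusted p = 0.000285). MT-RNR2 was at 3956, 3402 and 3987 FPKM and at 5108, 4886 and 4623 FPKM (0.37, SE 0.08, adjusted p = 0.00488; 0.09, adjusted p = 0.349, with quantile normalization; adjusted p = 0.269 with no filter). MT-RNR1 had the larger change. There were 15.3, 14.3 and 13.4 MT-RNR1 reads per 100 MT-RNR2 reads under sh-NC and 19.6, 18.8 and 17.9 under sh-CLGN, with no overlap, a ratio of 1.31 (exact permutation p = 0.1, the smallest possible). The sources used here do not name a poly(A) selection or rRNA removal step, which would set how much rRNA is read.

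The 22 tRNAs, of 59 to 75 bases, were read unevenly. MT-TC, MT-TN, MT-TP and MT-TY, all on the minus strand, took 1681 to 2089 of 1790 to 2229 tRNA reads per sh-NC library and 2583 to 2986 of 2945 to 3349 per sh-CLGN library. Their sequences are shown because nearly all tRNA reads fall on them (GENCODE 29 transcripts, GRCh38, 5′ to 3′, written with T; the capitals mark the anticodon, which reads the codon on the mRNA).
MT-TC (chrMT:5761-5826, minus strand, cysteine): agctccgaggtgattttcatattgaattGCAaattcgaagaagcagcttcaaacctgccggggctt
MT-TN (chrMT:5657-5729, minus strand, asparagine): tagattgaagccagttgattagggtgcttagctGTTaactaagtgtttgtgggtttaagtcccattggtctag
MT-TY (chrMT:5826-5891, minus strand, tyrosine): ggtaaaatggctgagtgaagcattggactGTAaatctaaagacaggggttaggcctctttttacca
MT-TP (chrMT:15956-16023, minus strand, proline): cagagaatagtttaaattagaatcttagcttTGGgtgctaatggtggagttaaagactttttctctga
MT-TC, MT-TN and MT-TY are neighbours and MT-TP lies at the far end of the gene map. MT-TC had 993, 938 and 1097 reads under sh-NC and 1706, 1654 and 1480 under sh-CLGN. MT-TN had 435, 389 and 558 reads, and 761, 729 and 624. MT-TY had 95, 104 and 106 reads, and 186, 160 and 172. In none of the 3 did the groups overlap, and all 3 rose, with log2 fold changes of 0.51 (adjusted p = 0.000322), 0.45 (adjusted p = 0.00764) and 0.59 (adjusted p = 5.68e-05). MT-TP had 321, 250 and 328 reads and 333, 296 and 307 reads, which overlapped (log2 fold change -0.10, SE 0.10, adjusted p = 0.405), and its direction depended on the setting. It was called higher with quantile normalization (0.25, adjusted p = 0.0325), and lower with the length trend removed (-0.56, adjusted p = 0.000571), with a GC trend removed (-0.52, adjusted p = 0.00145) and without sh-NC replicate 2 (-0.22, adjusted p = 0.0211).

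The tRNAs that rose most had few reads under sh-NC. MT-TV, MT-TM, MT-TE and MT-TT, chosen after their values were seen as tRNAs with widely separated groups, are shown in the same way. MT-TI and MT-TD passed the filter through sh-CLGN, with 19 and 20 reads in all. Their fitted fold changes are therefore not set beside those of MT-TE and MT-TT, and their reads are given further on.
MT-TV (chrMT:1602-1670, plus strand, valine): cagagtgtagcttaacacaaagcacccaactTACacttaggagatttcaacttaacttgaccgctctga
MT-TM (chrMT:4402-4469, plus strand, methionine): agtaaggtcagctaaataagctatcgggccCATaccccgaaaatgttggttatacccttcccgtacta
MT-TE (chrMT:14674-14742, minus strand, glutamate): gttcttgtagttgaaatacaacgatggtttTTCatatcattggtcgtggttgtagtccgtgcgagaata
MT-TT (chrMT:15888-15953, plus strand, threonine): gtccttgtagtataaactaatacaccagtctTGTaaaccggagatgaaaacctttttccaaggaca
MT-TV had 0, 1 and 3 reads under sh-NC and 17, 19 and 21 under sh-CLGN, a ratio of summed reads per library size of 12.7 (95% exact interval 4.69 to 48.1, counting error only). MT-TM had 0, 1 and 0 reads, and 7, 7 and 11 (ratio 22.2, interval 3.64 to 913). MT-TE had 12, 33 and 21 reads, and 92, 92 and 118 (log2 fold change 2.07, SE 0.29, adjusted p = 0.000456). The groups of these tRNAs did not overlap, but the tRNAs were chosen for that, so it is no further result. Over all tested genes, 28.7% had every sh-CLGN library above every sh-NC library. MT-TT had 6, 3 and 5 reads, and 23, 19 and 19 (1.79, SE 0.19, adjusted p = 0.000111), and MT-TL1, which lies between MT-RNR2 and MT-ND1, had 36, 21 and 32 reads, and 80, 101 and 80 (1.38, SE 0.19, adjusted p = 0.000437).

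In all, 16 tRNAs passed the filter and 14 of them were called higher, against 26.7% of tested genes, but 6 of the 16 were under 1 FPKM in at least 1 sh-NC library and passed through the group in which they were high. Of the 10 tRNAs at 1 FPKM or more in each sh-NC library, 9 were called higher and MT-TP was not. The remaining rises in that set were those of MT-TG (4, 11 and 17 reads, then 38, 26 and 19), MT-TR (15, 11 and 22, then 40, 30 and 30) and MT-TH (29, 25 and 28, then 42, 69 and 36). Of these, MT-TG and MT-TH were the least firm, with adjusted p of 0.0258 and 0.0354. The call of MT-TG was lost without sh-CLGN replicate 1 (adjusted p = 0.0738), and that of MT-TH without sh-NC replicate 2 or 3 (0.0934 and 0.0810) and with voom (0.0572). MT-TD had 0, 1 and 1 reads under sh-NC and 5, 9 and 4 under sh-CLGN (ratio 8.0, interval 1.92 to 71.1). MT-TI, MT-TK and MT-TA had 19, 10 and 14 reads in all libraries together, of which 17, 9 and 9 were under sh-CLGN, and MT-TA did not pass (adjusted p = 0.325). MT-TK was called higher (adjusted p = 0.0287), although its groups overlapped. Its call was lost, among other settings, with voom (0.0562), with quantile normalization (0.0689) and without sh-NC replicate 2 or 3 (0.0828 and 0.0843). In an alternative chosen after seeing the data, the trend of gene length in each library was removed. Calls among tRNAs and rRNAs then went from 16 to 9, while 31.5% of all tested genes were called higher. MT-TC, MT-TN and MT-TY were then at 0.05, 0.01 and 0.13 on the log2 scale. Of the 9 called tRNAs at 1 FPKM or more in each sh-NC library, MT-TC, MT-TN, MT-TY, MT-TG, MT-TR and MT-TH were lost in that setting, and MT-TL1, MT-TE and MT-TT were left.

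**Figure D4:**
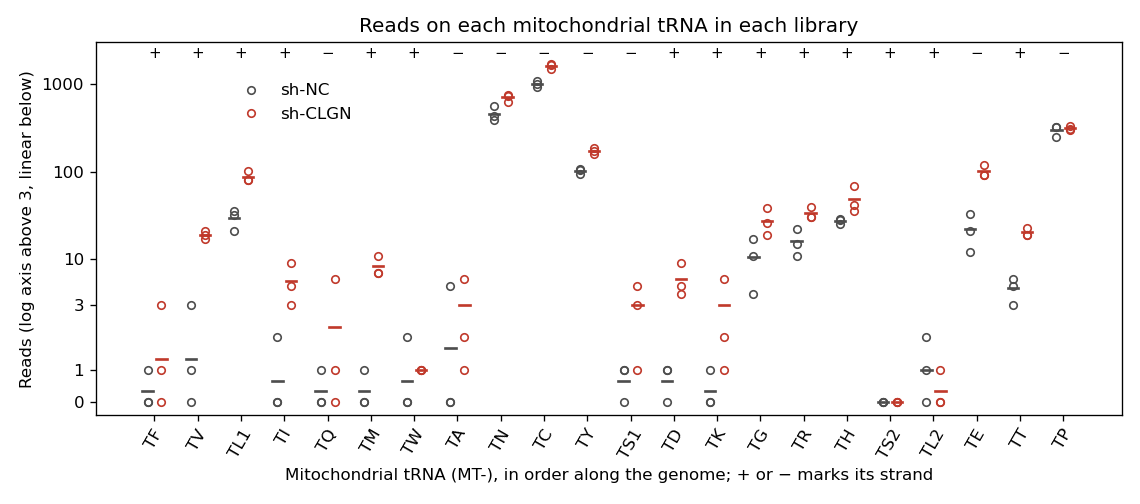
Reads on each of the 22 tRNAs in order along the genome (log axis above 3 reads, linear below); circles are single libraries, bars the mean of 3, and + or − the strand. TN, TC, TY and TP stand far above the rest in both groups, and for TV, TM, TE and TT all sh-CLGN circles lie well above the sh-NC circles.

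Without MT-TC, MT-TN, MT-TP and MT-TY, a split chosen after seeing the data, the other 18 tRNAs had 2.12, 2.62 and 2.99 reads per 10000 mitochondrial mRNA reads under sh-NC and 5.16, 5.71 and 4.92 under sh-CLGN, a ratio of 2.04 (exact permutation p = 0.1, the smallest possible). The 4 abundant ones gave 36.8, 40.5 and 44.6, and 42.5, 41.8 and 35.1, which overlapped. Minus-strand tRNA reads per 100 plus-strand tRNA reads were 1997, 2287 and 1873 under sh-NC and 1164, 1024 and 1159 under sh-CLGN, lower in every sh-CLGN library (ratio 0.544, exact permutation p = 0.1). With the 4 abundant tRNAs left out the ratio turned to 1.52 (exact permutation p = 0.3). MT-TE then held most minus-strand reads, 66 in all under sh-NC and 302 under sh-CLGN. MT-TA, MT-TQ and MT-TS1 had 5, 1 and 2, and then 9, 7 and 9. The strand balance of tRNAs therefore rested on MT-TC, MT-TN, MT-TP and MT-TY. Strand here is that of the annotated gene. Whether reads were counted by strand is not stated, so RNA of the opposite strand at the same place may be included.

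MT-TE, at a log2 fold change of 2.07, lies between MT-ND6 at 0.65 and MT-CYB at 0.33, and MT-TT, at 1.79, follows MT-CYB. MT-TV, between both rRNA genes, passed the filter through sh-CLGN and had 4 reads in all under sh-NC, so its fitted fold change is not set beside theirs. Reads on a tRNA cannot be divided here into mature tRNA and uncut precursor, and how reads that span 2 genes were counted is not given in the sources used here.

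Short RNAs of the nucleus were also read more under sh-CLGN. Small nuclear RNAs took 0.00208% ± 0.000122 of reads under sh-NC and 0.00376% ± 0.000168 under sh-CLGN (SD, n = 3), and small nucleolar RNAs 0.00216% ± 0.000125 and 0.00374% ± 0.000150, with no overlap (exact permutation p = 0.1 each, the smallest possible). The ratios, 1.81 and 1.73, were above the 1.62 of the mitochondrial tRNA share. Small Cajal body RNAs gave 2.12 and the miscellaneous RNA class 1.78, while histone genes, most of whose mRNAs have no poly(A) tail, gave 0.921 and overlapped. Genes below the filter, as a whole, also took more reads, 0.760% ± 0.0186 under sh-NC and 1.18% ± 0.00343 under sh-CLGN, a ratio of 1.55, and genes with at least 1 read numbered 23578 to 23793 and 26814 to 27006 per library, with no overlap. Among 378 tested nuclear genes of up to 300 bases the median log2 fold change was 0.32, against -0.15 among 4886 genes of 2000 to 5000 bases. Only 2 of the 378 were protein coding, against 4489 of the 4886, so length and gene type cannot be told apart. From 300 to 700 bases the median was 0.17 over 634 genes and -0.03 over the 50 protein-coding ones. Genes this short reach 1 FPKM with few reads, and how many passed the filter through sh-CLGN alone was not counted. Of a list of 19 nuclear RNAs without a poly(A) tail, 16 had at most 3 reads in every library and 1 of 3 tested, RN7SL2 of the signal recognition particle, rose (0.69, adjusted p = 0.00622). The part of RNA length or of library preparation in the tRNA values was not tested beyond the length trend above.

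Nuclear copies of mitochondrial sequence can share reads with the genes they were copied from. Of 407 genes named as such copies, 88 had a read, and 4 on chromosome 1 held 41376 of 42094 reads. Their changes lay beside those of the mitochondrial genes of the same name. MTND2P28 had a log2 fold change of 1.13 (adjusted p = 0.000111) next to 1.08 for MT-ND2, and MTND1P23 of 1.07 (adjusted p = 0.000329) next to 1.06 for MT-ND1. MTCO1P12, at 0.47 (adjusted p = 0.0647), stood next to 0.49 for MT-CO1, and MTATP6P1, at 0.12 (adjusted p = 0.536), next to 0.16 for MT-ATP6. Reads on all copies came to 0.893% to 1.11% of the mitochondrial reads of a library, and whether they come from the copies or from the mitochondrial genome was not tested.

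The mRNAs were next compared with the nuclear genes for the same complexes, since each complex needs both. Most nuclear subunits that passed the test were lower in the scaling of the deposited FPKM, in which 39.0% of all tested genes were lower and 26.7% higher. There 3 of 35 tested nuclear subunits of complex I were higher and 19 lower (median log2 fold change -0.22), as were 1 and 7 of 9 for complex III (-0.47), 0 and 5 of 11 for complex IV (-0.15) and 0 and 8 of 15 for complex V (-0.28), against a median of -0.08 over all tested genes. Complex II, which has no mitochondrial subunit, had 0 higher and 4 lower of 4 (-0.27). Scaling by all recovered reads raised the median of all tested genes by 0.16 to 0.08, with 37.9% of them higher and 26.2% lower. It left 8 higher and 7 lower in complex I (median -0.06), 0 and 1 in complex II (-0.09), 1 and 6 in complex III (-0.28), 1 and 1 in complex IV (0.04) and 2 and 4 in complex V (-0.08). The sign of the median turned in complex IV alone of the 5, and all 5 medians lay below that of all tested genes in both scalings. These scalings move all genes of a library by nearly the same amount, so that order could hardly change between them. With quantile normalization, complex IV was at 0.13 and complex V at -0.0159, above the -0.0165 of all tested genes. Complexes I, II and III were at -0.05, -0.04 and -0.20, below it.

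The difference between mitochondrial and nuclear subunits within 1 library does not depend on the scaling between libraries, apart from the pseudocount. For complex I, the mean log2(FPKM + 1) of 7 mitochondrial mRNAs minus that of 35 nuclear ones was 6.14, 5.88 and 5.98 under sh-NC and 6.76, 6.84 and 7.06 under sh-CLGN, a widening by 0.89. It widened by 0.78 for complex III (1 mitochondrial and 9 nuclear genes), by 0.44 for complex IV (3 and 11) and by 0.49 for complex V (2 and 15). In the scaling of the deposited FPKM, the mitochondrial means changed by 0.71, 0.33, 0.21 and 0.21 in complexes I, III, IV and V. The nuclear means changed by -0.18, -0.45, -0.23 and -0.28. MT-ATP8, whose deposited level is not read as the amount of its RNA, is 1 of the 2 mitochondrial genes of complex V. With the median over subunits in place of the mean the widening was 0.53, 0.52, 0.41 and 0.47 for complexes I, III, IV and V. In each of the 4 complexes all sh-CLGN libraries lay above all sh-NC libraries (exact permutation p = 0.1 each, also after adjustment over 4, the smallest possible).

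**Figure D5:**
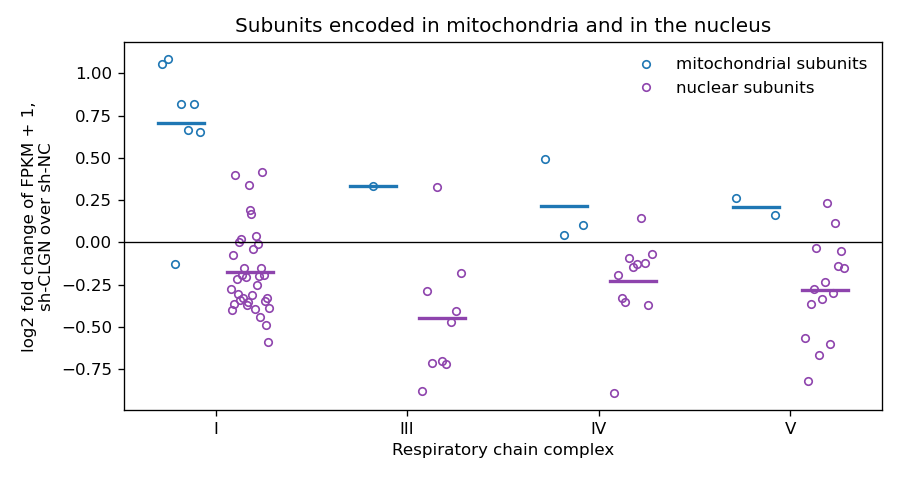
log2 fold change (sh-CLGN over sh-NC) of each tested mitochondrial and nuclear subunit of complexes I, III, IV and V; circles are genes and bars their means. In the scaling of the deposited FPKM, mitochondrial means lie above 0 and nuclear means below it in all 4 complexes, with ND3 the mitochondrial gene below 0; scaled by all reads, the median of nuclear complex IV genes turned to 0.04 and ND3 to 0.07.

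Single nuclear subunits that fell included NDUFV1 (132 to 87.0 FPKM in the means, log2 fold change -0.59, adjusted p = 0.000126) of complex I. CYC1, the cytochrome c1 of complex III, went from 90.1 to 48.3 FPKM (-0.88, adjusted p = 4.89e-05), and COX4I1 of complex IV from 76.4 to 40.7 FPKM (-0.89, adjusted p = 7.19e-06). ATP5F1B, the catalytic beta subunit of complex V, went from 561 to 317 FPKM (-0.82, adjusted p = 6.64e-06). These 4 genes fell while MT-ND1, MT-ND2 and MT-CO1 rose in the same libraries. MT-ATP6 and MT-ATP8 of complex V, and MT-CO2, MT-CO3 and MT-ND3, were not called. Among nuclear subunits, 3 of complex I and 1 of complex III were higher.

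The nuclear genes that copy and transcribe mitochondrial DNA did not move together. Of 24 tested, 5 were higher and 7 lower (median log2 fold change -0.07), against 26.7% and 39.0% of all tested genes. POLRMT, the mitochondrial RNA polymerase, was at 38.8 FPKM under sh-NC and 34.2 FPKM under sh-CLGN (-0.17, adjusted p = 0.203). In the scaling of the deposited FPKM, the promoter factors TFAM (15.7 and 17.2 FPKM, 0.12, adjusted p = 0.110) and TFB2M (17.2 and 17.5 FPKM, 0.02, adjusted p = 0.722) did not pass either. TEFM, the elongation factor, rose from a low level (1.52 to 2.28 FPKM, 0.37, adjusted p = 0.0163). The smallest adjusted p in the list belonged to genes that fell, TWNK, the replicative helicase (-0.96, adjusted p = 6.21e-06), RNASEH1, which removes RNA from DNA hybrids (-0.99, adjusted p = 1.96e-05), TOP3A, a topoisomerase (-0.82, adjusted p = 2.54e-05), and LIG3, a DNA ligase (-0.37, adjusted p = 0.000557). Scaled by all reads, the median of this list turned to 0.11, with 10 higher and 6 lower, against 37.9% and 26.2% of all tested genes.

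Among 33 tested genes that cut, modify, stabilise or degrade mitochondrial RNA, 4 were higher and 16 lower (median -0.22; 10 and 11, median -0.07, scaled by all reads), beside the same shares of all tested genes in each scaling. LRPPRC, which binds mitochondrial mRNAs and keeps them stable, rose from 16.2 to 24.8 FPKM (log2 fold change 0.59, adjusted p = 8.23e-05), while its partner SLIRP was at 12.4 and 14.1 FPKM (0.17, adjusted p = 0.134). GRSF1, an RNA granule protein, fell from 16.9 to 7.56 FPKM (-1.06, adjusted p = 5.63e-06), as did DDX28 (-0.86, adjusted p = 2.10e-05) and the rRNA methyltransferase MRM2 (-0.58, adjusted p = 3.46e-05).
Of the 2 enzymes that cut at the ends of tRNAs, ELAC2, which cuts the 3′ end, fell (24.6 to 18.1 FPKM, -0.42, adjusted p = 0.000136), and TRMT10C, a subunit of the 5′ end enzyme, did not pass (14.3 and 16.9 FPKM, 0.23, adjusted p = 0.0841). The decay helicase SUPV3L1 fell (-0.33, adjusted p = 0.00183) and its nuclease partner PNPT1 rose (0.30, adjusted p = 0.0150). MTPAP, the mitochondrial poly(A) polymerase, was at 4.39 and 4.81 FPKM (0.11, adjusted p = 0.126).

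Of 78 tested mitochondrial ribosomal protein genes, 6 were higher and 46 lower (median log2 fold change -0.25), against 26.7% and 39.0% of all tested genes. Scaled by all reads, 16 were higher and 23 lower (median -0.08), against 37.9% and 26.2%. MRPL37 fell from 57.4 to 17.3 FPKM (-1.67, adjusted p = 1.63e-06), MRPS18B from 40.1 to 19.9 FPKM (-0.97, adjusted p = 9.65e-06) and DAP3 from 61.4 to 39.2 FPKM (-0.63, adjusted p = 1.51e-05). MRPL33 went the other way, from 4.66 to 14.4 FPKM (1.44, adjusted p = 6.21e-06).

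The labelled cell type was checked against 10 hepatocyte markers, all of which were tested. Their summed level was 7868 to 8132 FPKM under sh-NC and 8105 to 8697 FPKM under sh-CLGN, with 4 members higher and 5 lower. Albumin (ALB) fell (2007 to 1076 FPKM, -0.90, adjusted p = 7.88e-06), as did transferrin (TF, -1.62, adjusted p = 4.15e-07), and FGB (0.72, adjusted p = 2.98e-05) and TTR (0.58, adjusted p = 0.000167) rose. Of 10 fibroblast markers, 6 had at most 3 reads in every library, and the summed level was 3.01 to 3.29 FPKM under sh-NC and 6.78 to 7.49 FPKM under sh-CLGN. COL3A1 (0.265 and 1.67 FPKM in the means) and LUM (0.304 and 1.75 FPKM) passed the filter only through sh-CLGN, the group in which they were high. PDGFRB was at 2.12 and 2.76 FPKM (0.27, adjusted p = 0.0334), a call that was lost without sh-CLGN replicate 2 or 3. Endothelial and leukocyte markers summed to 2.38 to 3.67 and 0.517 to 1.56 FPKM, with 1 of 5 tested and lower in each (PECAM1 and CD14). Their part in the mitochondrial values was not tested.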

How the data were processed

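The data were 6 RNA libraries of Hep-G2 cells (3 per hairpin; NEBNext Ultra kit, per the labels). The authors deposited 1 table of FPKM per gene with gene length and position. The submitters' processing notes name HISAT2 2.0.5, featureCounts and GRCh38; strandedness, handling of multiply mapped reads and any poly(A) or rRNA step are not given in the sources used here. All gene positions matched GENCODE 29. FPKM times length fell on whole steps for 100% of non-zero values (tolerance 0.01 read), so reads were recovered; the library sizes behind FPKM were 0.933 to 0.953 of total reads under sh-NC and 1.07 to 1.08 under sh-CLGN. Reads per library limit the precision of low genes, and read intervals cover counting error only.

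limma 3.58.1 (R 4.3.3; eBayes with an intensity trend) was fitted on log2(FPKM + 1), which understates changes of low genes, over all genes reaching 1 FPKM in 3 libraries or more, with Benjamini-Hochberg adjustment. Shares and balances per library were tested by exact two-sided permutation. The fit was tested on simulated data. The gene lists, the members and the tests were chosen with earlier results of these data known. All 37 members could be named; of each list the 4 genes with the smallest adjusted p that passed, 11 preset genes of transcription and RNA handling and the 4 nuclear copies with the most reads were eligible. 3 list symbols were matched through older names. Alternatives were other pseudocounts, filters, scalings, voom, no trend, a replicate block, removal of GC or length trends (lowess span 0.3), and leaving out each library.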

Additional observations from a re-analysis of the deposited data

Results flagged for a closer look

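The 6 tRNAs below the expression filter (MT-TF, MT-TQ, MT-TW, MT-TS1, MT-TS2 and MT-TL2) lay outside the tested genes, and together they had 3, 2 and 4 reads under sh-NC and 7, 9 and 8 under sh-CLGN. The means were 8.0 reads under sh-CLGN and 3.0 under sh-NC (SD 1.0 in both, n = 3), in data outside the main measurement. They were flagged because every sh-CLGN library was above every sh-NC library. The lack of overlap and the exact permutation p of 0.1, the smallest possible, therefore follow from that choice. MT-TQ had 1, 0 and 0 reads under sh-NC and 0, 6 and 1 under sh-CLGN. MT-TL2 went the other way, with 2, 0 and 1 reads, and then 1, 0 and 0. All genes below the filter together took 0.760% of reads under sh-NC and 1.18% under sh-CLGN (ratio 1.55, no overlap), and genes with at least 1 read numbered 23672 and 26887 in the means, so reads on low genes were more frequent across these libraries. MT-TS2 had no read in any library.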

How the results depend on the processing

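The log2 fold change of CLGN ran from -1.54 to -1.10 over the settings tried and from -1.39 to -1.24 with a library left out, and passed in all of them. Mitochondrial mRNAs called higher numbered 5 with no filter on low values, beside 13.6% of all tested genes. They numbered 7 to 10 in the other settings, beside 20.7% to 39.8%, and 7 to 11 with a library left out, beside 20.5% to 28.0%. None was called lower in any setting, beside 14.1% to 40.3% of all tested genes. Called tRNAs and rRNAs numbered 9 with the length trend removed, beside 31.5% of all tested genes called higher. They numbered 12 to 16 in the other settings, beside 13.6% to 39.8%, and 14 to 16 with a library left out, beside 20.5% to 28.0%. These counts include tRNAs that passed the filter through sh-CLGN. Signs turned in genes that did not pass with all libraries and the main setting: MT-CO2 (-0.064 with the length trend removed, -0.13 with quantile normalization, -0.077 to 0.20 with a library left out), MT-ATP8 (-0.030 with the length trend removed, and called higher at 0.58 with quantile normalization), MT-CO3 (-0.056 with quantile normalization), MT-ND3 (0.068 scaled by all reads, 0.10 by nuclear reads, -0.29 to 0.11 with a library left out) and MT-TP (0.024 as TPM, 0.25 and called higher with quantile normalization, 0.092 and 0.12 scaled by all and by nuclear reads; called lower at -0.56 with the length trend removed and at -0.22 without sh-NC replicate 2). The rRNA balance turned to 1.05 with FPKM in place of reads, and the strand balance of tRNAs to 1.52 with 4 tRNAs left out. The cause was not tested. Over a library left out, ratios ran from 1.48 to 1.64 for the mitochondrial share, 0.944 to 1.04 for the rRNA balance, 0.994 to 1.10 for the tRNA balance and 0.810 to 1.04 for the share of MT-ATP8. MT-CO3 and MT-ATP6 were called higher at 0.23 and 0.29 as TPM and at 0.30 and 0.36 scaled by all reads. Removing a GC trend lost MT-TG (0.57), MT-TR (0.07), MT-TH (0.27) and MT-TK (0.86) and put MT-TP at -0.52, called lower. No pairing by replicate number was found (correlations of same-numbered deviations -0.02, -0.05 and -0.15). With the number as a block, 8 mRNAs and 16 tRNAs and rRNAs were still called higher, beside 25.1% of all tested genes. In that fit MT-TG was lost (adjusted p = 0.0508) and MT-TA gained (adjusted p = 0.0238). The widening between mitochondrial and nuclear subunits fell to 0.53 in complex I and 0.52 in complex III with medians over subunits. Over all tested genes, the share of calls that were higher went from 40.7% to 59.2% scaled by all reads, 61.9% by nuclear reads and 52.2% as TPM. At 0 to 21 reads per library, MT-TV, MT-TM, MT-TD, MT-TI and MT-TK are limited by depth.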
